A study of Mus musculus with 2 samples.

Results

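The genes of mitochondrial ribosomal proteins were examined in hearts of female B6CASTF1/J mice aged 18 to 20 months, from which total RNA had been sequenced. Every gene whose name begins with Mrpl or Mrps and a digit was taken if the annotation gave it at least 1 protein-coding transcript. This gave 78 of the 55450 genes in the transcript table used for the rule, 49 named Mrpl for the large subunit and 29 named Mrps for the small subunit. Another 5 genes with such names, Mrpl23-ps1, Mrpl48-ps and 3 copies of Mrps36, had no protein-coding transcript and were left out.

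The study held 1 group of 2 libraries, called replicate 1 and replicate 2, each from 300 ng of RNA from which ribosomal RNA had been reduced. B6CASTF1/J mice are the F1 offspring of the strains C57BL/6J and CAST/EiJ, and the deposited values are not split by allele. No second genotype, treatment or age was sampled, so values are given for each library and no group was tested against another. The labels list separate biosamples with the same donor entry, and the spread between the libraries may therefore be technical in part. Levels are in TPM, a share of all transcripts that already accounts for their length, from the gene table in the column layout of RSEM unless stated otherwise. A second table, in the column layout of kallisto, gave a second estimate for the same libraries.

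Mitochondria keep their own ribosome, which makes the few respiratory chain subunits encoded in mitochondrial DNA. Its ribosomal RNAs come from that DNA, while all of its proteins are encoded in the nucleus, made in the cytosol and imported. Some of these proteins descend from bacterial ribosomal proteins and others have no counterpart in the bacterial ribosome. The heart, with its dense mitochondria and steady demand for ATP, depends on this machinery.

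Sequence around the starts of the genes is shown first, because many of the genes lie next to another start. In 33 of the 78 genes (42.3%) the start of another protein-coding gene on the opposite strand lay within 1000 bp, compared with 16.5% of the 11004 protein-coding genes at 1 TPM or more in both libraries. The following intervals, from RefSeq promoter windows of GRCm38.p6, are the bases between 2 such starts that lie in no annotated exon. They are written 5′ to 3′ on the strand of the mitochondrial ribosomal protein gene, and capitals mark the letters CCGGAA, the core of sites bound by ETS factors, on either strand.
Mrpl30 (chr1:37890412-37890476, plus strand, opposite Mitd1): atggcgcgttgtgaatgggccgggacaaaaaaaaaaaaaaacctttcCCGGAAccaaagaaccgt
Mrps27 (chr13:99344706-99344785, plus strand, opposite Ptcd2): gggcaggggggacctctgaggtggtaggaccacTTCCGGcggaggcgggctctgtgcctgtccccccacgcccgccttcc
Mrps18c (chr5:100798599-100798626, plus strand, opposite Helq): gtgacTTCCGGcccgggaagcgcgggaa
Mrpl50 (chr4:49521094-49521175, minus strand, opposite Zfp189): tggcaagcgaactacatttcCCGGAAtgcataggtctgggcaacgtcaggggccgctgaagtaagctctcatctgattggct
Mrpl49 (chr19:6057786-6057843, minus strand, opposite Fau): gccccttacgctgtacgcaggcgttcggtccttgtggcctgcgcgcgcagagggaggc
Mrpl32 (chr13:14613166-14613239, minus strand, opposite Psma2): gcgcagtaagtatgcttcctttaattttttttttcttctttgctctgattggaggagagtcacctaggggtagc
Mrpl57 (chr14:57826186-57826233, plus strand, opposite Ska3): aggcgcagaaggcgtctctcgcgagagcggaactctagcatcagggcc

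Of these intervals, those of Mrpl30, Mrps27, Mrps18c and Mrpl50 held the ETS letters once each, and those of Mrpl49, Mrpl32 and Mrpl57 did not. They were picked from 13 intervals read from the windows, of which 5 held the letters and 8 did not. Over whole RefSeq windows, from 250 bases before to 50 bases after a start, 69 of the 78 genes were matched by symbol. CCGGAA was found on either strand in 40 of the 69 (58.0%), in 32.2% of 8645 protein-coding genes detected in both libraries and in 16.7% of all 27025 genes of the promoter table. The share was alike in the subunits, with 25 of 43 large subunit and 15 of 26 small subunit genes. TGCGCA, letters from the palindromic site of NRF1, a regulator of nuclear genes for mitochondria, was in 21 of 69 windows (30.4%) against 16.5% of detected genes, and AAGATGGC, the YY1 site, in 12 (17.4%) against 5.53%. The TATA box letters TATAAA were in 5 windows (7.25% against 8.50%), CCAAT in 27 (39.1% against 42.9%) and the E-box CACGTG in 5 (7.25% against 12.1%). The motifs may overlap one another at their ends, and a window may hold several of them. The median level of genes with CCGGAA was 31.3 TPM in the library of replicate 1 and 32.3 in that of replicate 2, and of genes without it 30.2 and 30.3. A match to these letters is a description of the window and not a measurement of binding.

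All 78 genes were detected at 1 TPM or more in both libraries, as were 50% of the 22028 protein-coding genes. Their median was 30.6 TPM in replicate 1 and 31.9 TPM in replicate 2, above the median of detected protein-coding genes, 8.80 and 9.03 TPM. The 80 genes of the cytosolic ribosome, the machine that translates nuclear messages, had medians of 212 and 222 TPM. Together the 78 genes took 0.341% and 0.332% of all TPM, and 0.826% and 0.831% of the TPM of nuclear protein-coding genes.

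Before single genes are compared, the samples themselves need a description. Expected counts summed to 35897521 and 36926429, of which the 78 genes held 81418 and 83426, from 83.9 for the least counted gene in a library to 3383 for the most counted. All 7 cardiomyocyte markers, such as Myh6 and Tnnt2, summed to 32178 TPM in replicate 1 and 31138 in replicate 2 in the gene table, and none was at 0. Each of the 7 was lower in replicate 2 in that table, but 7 of 7 were higher in replicate 2 in the kallisto-layout table (45260 and 46835 TPM), so their direction depends on the table. Of 9 adipocyte markers 9 were higher in replicate 2 (summed 99.5 and 510 TPM), as were 6 of 7 airway markers (1.02 and 283 TPM, with Sftpc at 0 in both) and 7 of 7 lymphocyte markers (6.51 and 156 TPM). All 5 blood markers were lower in replicate 2, with sums of 23409 and 11150 TPM. For these 4 lists the kallisto-layout table gave the same counts by direction. In bulk tissue fewer cells of a type and less RNA per cell cannot be told apart, and the part of these markers in the values below was not tested.

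Large and small subunit genes had similar levels. The median of the 49 Mrpl genes was 32.1 TPM in replicate 1 and 34.9 in replicate 2 (33.5 ± 1.99, SD, n = 2), and that of the 29 Mrps genes was 30.6 and 31.4 (SD 0.587). The ratio of large to small was 1.05 in replicate 1 and 1.11 in replicate 2. Of the large subunit genes, 25 of 49 lay above the common median of 31.2 TPM, and of the small subunit genes 14 of 29. The ranges overlapped almost wholly, since 4 large and 2 small subunit genes passed 100 TPM and 7 large and 6 small subunit genes stayed under 20 TPM.

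Names do not always give the place of a protein. Mrps18a and Mrps30 sit in the large subunit in known structures, Mrps36 is a component of the 2-oxoglutarate dehydrogenase complex, and Dap3, Chchd1, Aurkaip1 and Ptcd3 in the small and Gadd45gip1 in the large subunit carry other names. Sorted by position, 52 large subunit genes had medians of 31.3 and 32.9 TPM and 30 small subunit genes 31.4 and 32.8 TPM, a ratio of 0.998 in replicate 1 and 1.00 in replicate 2. For medians of the gene table, the direction of the small difference by name thus turned in replicate 1. It did not turn in the other settings compared. By position, the ratio of medians was 1.02 and 1.05 in the kallisto-layout table. The ratio of means by position was 1.12 and 1.11 in the gene table. Among the genes that names leave out, Dap3, a GTP-binding protein, had 57.5 and 56.8 TPM and Ptcd3, a pentatricopeptide protein, 50.03 and 50.6 TPM. Chchd1 had 43.4 and 42.1 TPM, Aurkaip1 42.0 and 42.2 TPM, and Gadd45gip1 only 11.7 and 12.3 TPM.

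**Figure D1:**
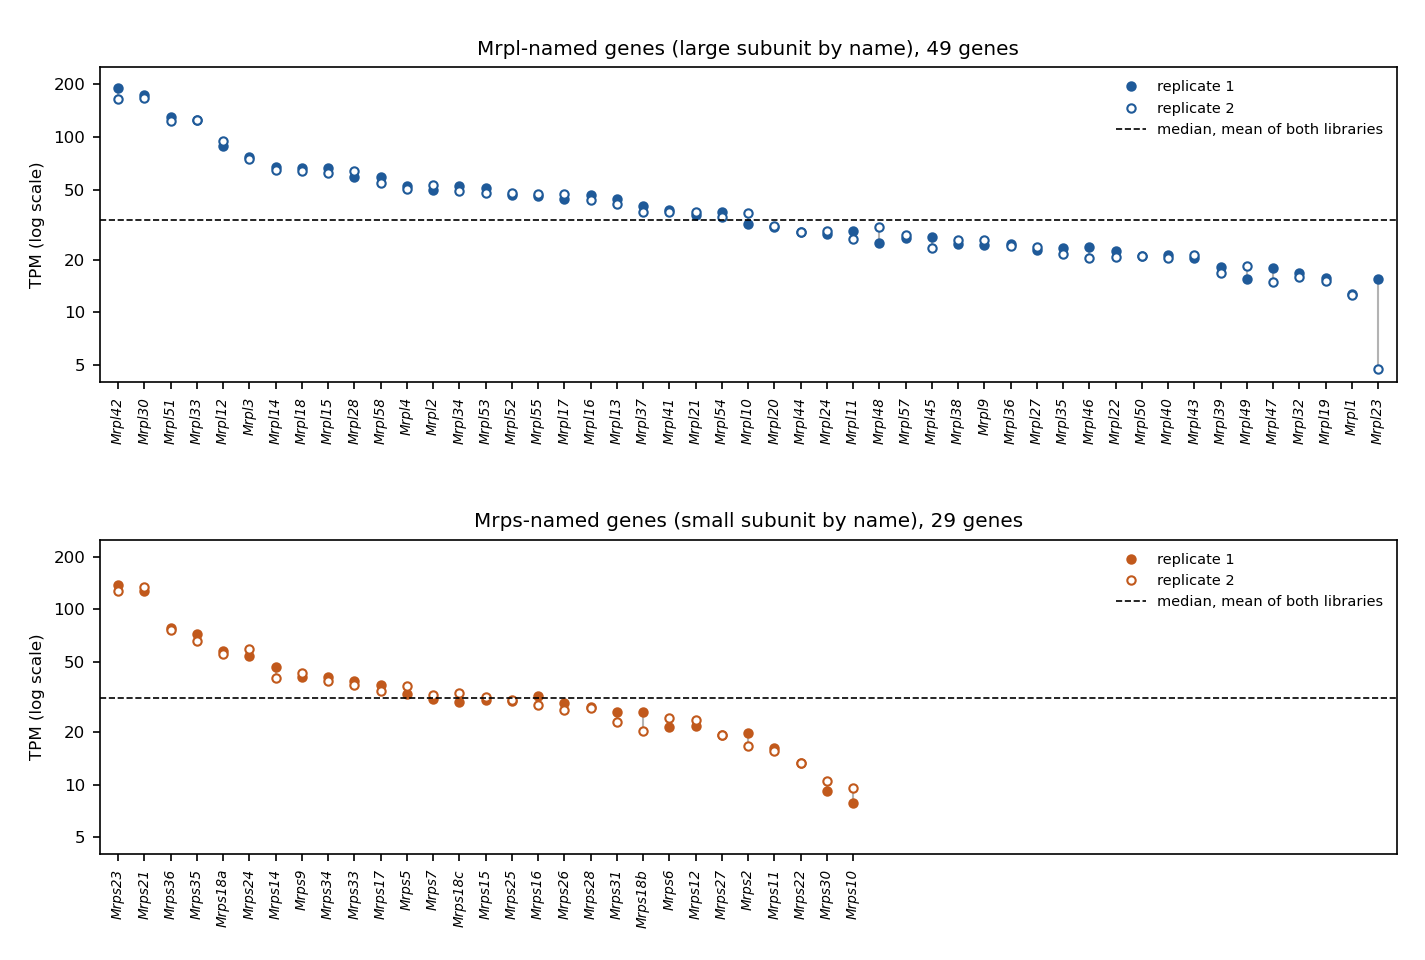
Level of each gene in TPM on a log scale, with Mrpl genes above and Mrps genes below, ordered by their mean. Filled points are replicate 1, open points replicate 2, grey lines join them and the dashed line is the median of the subunit. The 2 libraries lie close together for all genes but Mrpl23, and the subunits span the same range.

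Single genes differed far more from each other than the subunits did, with a 20.4-fold range between the highest and the lowest mean. In the large subunit Mrpl42, a protein without a counterpart in the bacterial ribosome, had 191 TPM in replicate 1 and 164 in replicate 2. Mrpl30, a homolog of bacterial L30, had 173 and 168 TPM, so that the order of this pair was not the same in both libraries. Mrpl51 had 130.4 and 123 TPM and Mrpl33 125 and 125 TPM, and these did not differ beyond their spread in the gene table. In the kallisto-layout table Mrpl33 (171 and 178 TPM) was above Mrpl51 (135 and 131 TPM). Mrpl30 was above Mrpl42 in both libraries there. Mrpl12 had 88.8 and 95.3 TPM, and Mrpl3, an L3 homolog near the core of the subunit, 76.4 and 74.99 TPM.

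In the small subunit Mrps23 had 138 and 127 TPM and Mrps21, a homolog of bacterial S21, 127 and 135 TPM, in opposite order in the libraries. Mrps36 came next by name with 77.9 and 76.1 TPM, then Mrps35 with 72.5 and 66.2 TPM. Mrps18a had 57.8 and 55.6 TPM and Mrps24 54.1 and 59.2 TPM, and their order too was not the same in both libraries.

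At the low end of the large subunit, Mrpl49 had 15.4 and 18.4 TPM, Mrpl47 18.0 and 15.0, Mrpl32 16.8 and 15.9, and Mrpl19 15.7 and 15.1. Their values overlapped, except that Mrpl32 was above Mrpl19 in both libraries. Mrpl1 was lower, with 12.7 and 12.6 TPM, and Mrpl23, described below, had 15.5 and 4.75 TPM. Low in the small subunit were Mrps27 (19.3 and 19.2 TPM), Mrps2 (19.7 and 16.6) and Mrps11 (16.2 and 15.6). Mrps22 had 13.3 and 13.4 TPM. Mrps30, which belongs to the large subunit by structure, had 9.23 and 10.5 TPM, and Mrps10, an S10 homolog, 7.82 and 9.54 TPM, so that both were under the other small subunit genes in each library of the gene table.

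Levels were also compared by descent. The 30 large subunit genes with a homolog in the bacterial ribosome had medians of 40.1 and 39.3 TPM. The 19 counted as having none there had 27.0 and 28.6 TPM. In the small subunit the 16 with a homolog had 30.6 and 31.9 TPM and the 10 counted as specific to mitochondria 29.6 and 28.4 TPM. Mrps18b, a relative of S18, was counted with these 10, and with it among the homologs, an alternative chosen after seeing the data, the medians were 30.6 and 31.4 TPM for 17 genes and 30.2 and 30.3 TPM for the other 9. The sets overlapped, as Mrpl42 and Mrpl51, both among the 19, were above 100 TPM in both libraries. Shorter transcripts tended to have higher TPM (r = -0.51 on log scales across the 78 genes, which share libraries and are not independent replicates).

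The stalk, which recruits translation factors, was uneven. Mrpl12, its L7/L12 protein, stood at 92.0 ± 4.61 TPM (SD, n = 2), and Mrpl10, which anchors Mrpl12, at 32.1 and 36.9 TPM in the 2 libraries. Mrpl11, at the base of the stalk, had 29.1 and 26.4 TPM. Mrpl1, of the separate L1 stalk at the tRNA exit side, was lowest. The level of Mrpl12 was above those of the other 3 in both libraries.

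Around the tunnel through which the new protein leaves, Mrpl17 had 44.4 and 47.0 TPM, Mrpl24 28.0 and 29.2, and Mrpl45, which helps to hold the ribosome at the inner membrane, 27.0 and 23.2. Mrpl22 had 22.5 and 20.8 TPM. Mrpl47 and Mrpl23 were among the lowest genes of the large subunit. This order rests on the gene table, and the kallisto-layout table gave another one, with Mrpl23 first.

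In the central protuberance, where a mitochondrial tRNA takes the place of 5S ribosomal RNA, Mrpl18 had 66.5 and 63.6 TPM and Mrpl58, a peptidyl-tRNA hydrolase built into the ribosome, 59.3 and 54.3 TPM. Both were above the other 5 genes in each library. Mrpl48 had 24.7 and 30.5 TPM, Mrpl38 24.4 and 25.7, and Mrpl27 22.5 and 23.7. Mrpl46 and Mrpl40 had 23.6 and 20.5, and 21.2 and 20.3 TPM.

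Along the path of the message and at the decoding site, Mrps24, an S3 homolog at the entry of the mRNA channel, was highest as given above. Mrps5 had 33.0 and 36.3 TPM and Mrps7 30.7 and 32.5 TPM. Mrps12, the S12 homolog of the decoding center, had 21.7 and 23.5 TPM, and Mrps2 was lowest in both libraries. Of the 3 relatives of bacterial S18, Mrps18a was highest, Mrps18c had 29.6 and 33.1 TPM and Mrps18b 25.9 and 20.3 TPM. Their order was the same in both libraries.

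The 2 libraries lay close together for these genes. A difference of 2-fold or more, on the scale of TPM plus 0.1, was seen in 1 of the 78 genes, Mrpl23, where 3.36% of 11354 protein-coding genes with a mean of at least 1 TPM were so far apart. The log2 ratio of replicate 2 to replicate 1 lay within 0.3 of 0 in 75 genes, and without Mrpl23 it ranged from -0.35 for Mrps18b to 0.30 for Mrpl48. Its SD was 0.23 over all 78 genes and 0.13 over the 77 without Mrpl23, and 0.43 over 5302 protein-coding genes in the same range of TPM with none left out. The median size of the log2 ratio, whatever its sign, was 0.09 in the 78 genes and 0.13 in the 5302. The counts by direction depended on the scaling. In replicate 2, 32 genes were higher and 46 lower by the gene table, and 48 higher and 30 lower by the kallisto-layout table. Of the 11004 protein-coding genes detected in both libraries, 5854 were higher in replicate 2 by the gene table and 7073 by the kallisto-layout table. After TMM scaling of counts 23 of the 78 genes were higher, and 41 after rescaling over nuclear protein-coding genes. In each of these settings the median log2 ratio of the 78 genes was below that of all protein-coding genes compared. The pairs of medians were -0.037 and 0.021 by the gene table and 0.038 and 0.089 by the kallisto-layout table. They were -0.087 and -0.024 after TMM scaling, and 0.009 and 0.075 after the rescaling. Over the 5302 genes the median was -0.005 by the gene table. By the kallisto-layout table, 0 of the 78 genes and 4.33% of protein-coding genes were 2-fold apart. With 1 library on each side no p-value can be given.

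**Figure D2:**
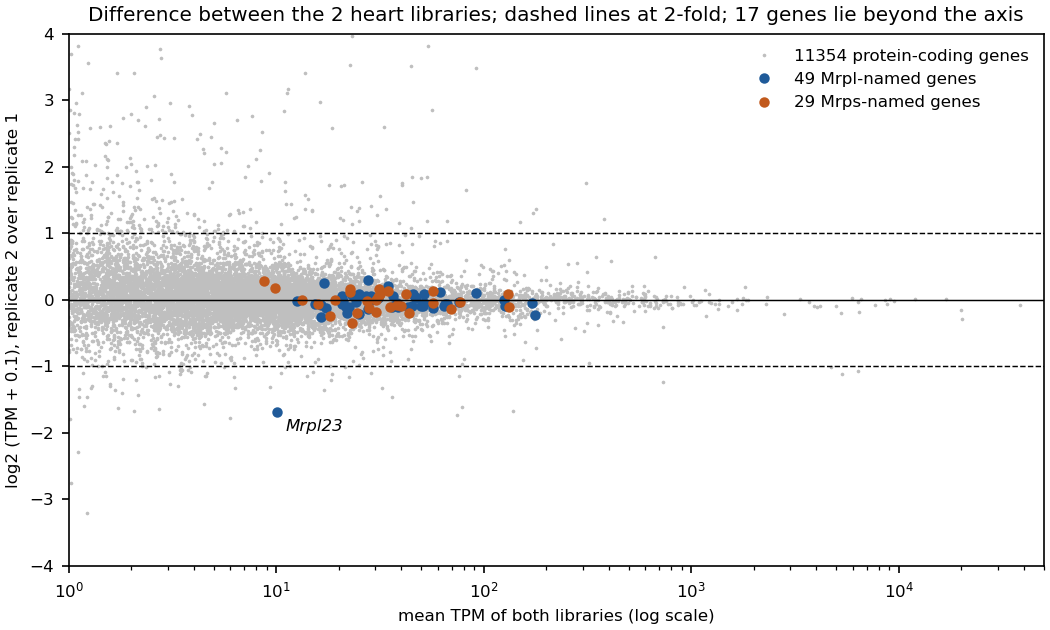
Log2 ratio of TPM plus 0.1 in replicate 2 over replicate 1 against the mean TPM on a log scale, with 11354 protein-coding genes in grey, Mrpl genes in blue and Mrps genes in orange. All 78 genes but Mrpl23 lie between the dashed lines that mark a 2-fold difference.

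Mrpl23 was the exception. The gene, at chr7:142532686-142540747 of mm10, encodes an L23 homolog beside the exit of the tunnel. It had an expected count of 231 in replicate 1 and 83.9 in replicate 2, and its CPM, the count scaled to library size, in replicate 1 was 2.83 times that in replicate 2 (95% interval 2.19 to 3.68, exact binomial, counting error only). Mrpl23-ps1, a processed pseudogene at chr2:74591330-74591909, moved the other way, with 464 and 654 counts. Added together, gene and pseudogene had 695 and 738 counts, a ratio of replicate 2 to replicate 1 of 1.03 (0.929 to 1.15). The kallisto-layout table gave Mrpl23 745 and 785 counts (62.0 and 63.4 TPM) and listed the pseudogene at 0 in both libraries.

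The sequences show how alike the copies are. Mrpl23-201 and the pseudogene aligned over 540 bases, of which 0 differed, and Mrpl23-206 and Mrpl23-207 aligned with it over 507 bases, again with 0 differing. A stretch of 120 bases in the coding part of Mrpl23-206 is printed with its copy, in lower case throughout because no base differs.
Mrpl23-206, bases 228 to 347: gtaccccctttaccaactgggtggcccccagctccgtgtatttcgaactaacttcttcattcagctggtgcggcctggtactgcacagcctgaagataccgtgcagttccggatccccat
Mrpl23-ps1, bases 35 to 154: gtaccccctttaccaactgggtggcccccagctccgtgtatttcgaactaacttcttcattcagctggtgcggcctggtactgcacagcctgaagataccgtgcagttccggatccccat

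A read that lies within such a stretch fits both places, so the values of Mrpl23 are uncertain in both tables. The posterior mean TPM deposited beside the maximum likelihood value was 15.6 in replicate 1 and 8.07 in replicate 2, less than 2-fold apart. In the gene table Mrpl23 had the lowest mean of the Mrpl genes, although Mrpl1 and Mrpl49 were lower in replicate 1. It had 62.0 and 63.4 TPM in the other table, where it was above the large subunit median of 41.0 and 43.8 TPM.

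**Figure D3:**
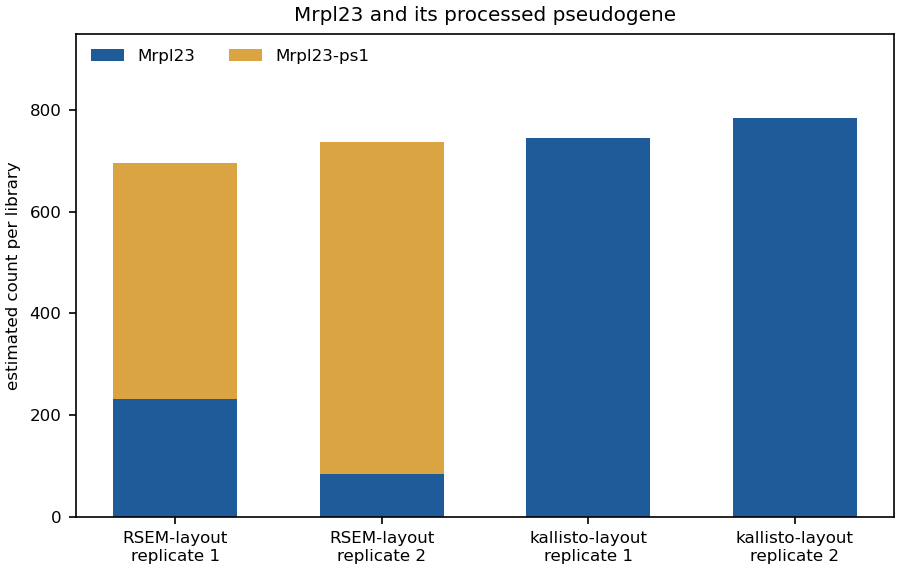
Estimated counts of Mrpl23 (blue) and its processed pseudogene Mrpl23-ps1 (yellow), stacked, for each library and table. The RSEM-layout sums are 695 and 738, split unequally, while the kallisto-layout table holds 745 and 785 counts on the gene alone.

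Other members share sequence with pseudogenes too. Counting words of 31 bases, 22 of the 78 genes shared 100 or more words with a processed pseudogene, in 36 pairs. Sharing was counted for the 78 genes alone, so no share over all protein-coding genes can be set beside these counts. The gene table put the pseudogene of 6 of these pairs at 1 TPM or more in both libraries, and the kallisto-layout table that of 4. Mrps33 and its copy Gm5776 had 853 and 823 counts against 57.2 and 71.6, and Mrps5 and Gm13328 691 and 807 against 72.6 and 46.2. Mrpl48 had 889 and 1038 counts and its copy Mrpl48-ps 91.7 and 108. In each of these the gene held most of the counts, and the kallisto-layout table listed Gm5776 and Gm13328 at 0. Mrpl53 shared 84.4% of its words with the protein-coding gene model Gm42688, at 0.43 and 0.45 TPM in the gene table. The kallisto-layout table gave Gm42688 3.86 and 3.94 TPM, with 386 and 398 counts against 606 and 596 for Mrpl53. Mrps34 shared 35.6% with Nme3, an overlapping nucleoside diphosphate kinase gene at 10.6 and 14.0 TPM in the gene table. In 24 genes no word was shared with any other gene.

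The tables differed for many of these genes. Of the 78 genes 70 were higher in the kallisto-layout table, with a median of 1.20 times the gene table. All 11348 protein-coding genes compared had a median of 1.13, so higher values in that table were not particular to these genes. More than 1.5 times apart were 16 genes (20.5%), compared with 10.6% of protein-coding genes, 15 of them higher in the kallisto-layout table (9.27% of protein-coding genes) and 1 lower. More than 2 times apart were Mrpl23 and Mrpl27, 2 of 78, compared with 2.14% of protein-coding genes.

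Mrpl27, an L27 homolog, had 22.5 and 23.7 TPM in the gene table and 51.3 and 60.6 in the kallisto-layout table. Its protein-coding transcript Mrpl27-201 had nearly the same level in both, 22.3 and 23.1 TPM as means of the libraries. The difference lay in Mrpl27-202 and Mrpl27-203, short models labelled processed transcript, with means of 0.78 and 0 TPM in the first table and 14.5 and 18.0 in the second. Mrps36 differed in the same way. Its main protein-coding transcript Mrps36-203 had means of 61.9 and 63.1 TPM in the tables, while Mrps36-205, a processed transcript of 482 nt, had 1.27 and 48.3 TPM.

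Mrpl22 had 22.5 and 20.8 TPM in the gene table and 39.8 and 39.3 in the other, with Mrpl22-201 at 20.7 and 19.9 TPM and the processed transcript Mrpl22-202 at 0.67 and 16.3. Mrpl3 had 76.4 and 74.99 TPM in the first and 137 and 139 in the second, and its short transcript Mrpl3-206, of 457 nt, had means of 16.0 and 50.2 TPM. Mrpl35 was 1.76, Mrps33 1.74 and Mrps10 1.73 times higher in the kallisto-layout table. Mrpl17 alone was more than 1.5 times lower there, with 27.1 and 32.1 TPM against 44.4 and 47.0. Its protein-coding models Mrpl17-204 and Mrpl17-205, of 459 and 380 nt, had means of 24.7 and 9.49 TPM in the first table and 5.48 and 0 in the second.

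**Figure D4:**
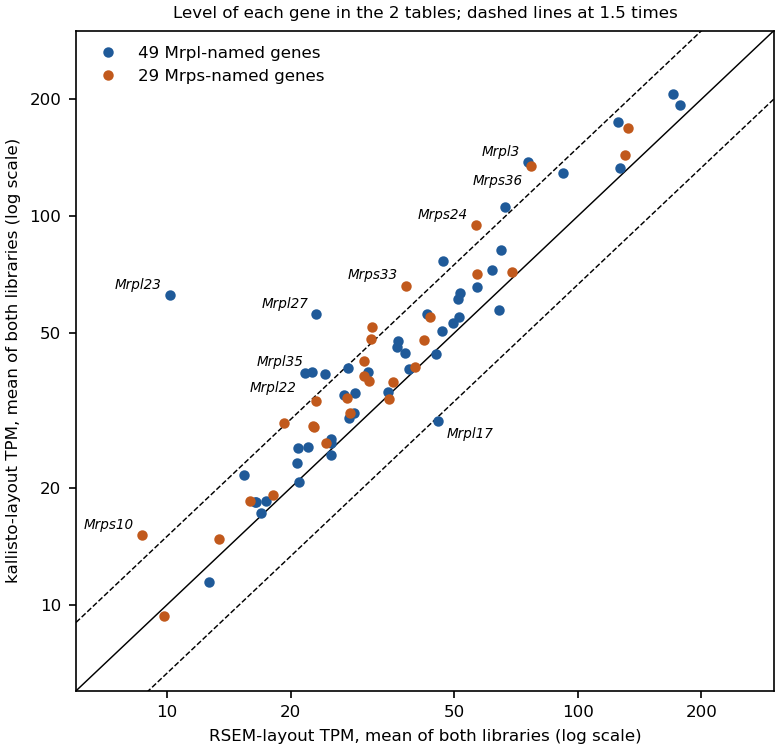
Mean TPM of both libraries in the kallisto-layout table against the RSEM-layout gene table, both on log scales, with the solid line at equal values and dashed lines at 1.5 times. Most genes lie above the solid line, Mrpl23 lies farthest from it and Mrpl17 alone lies under the lower dashed line.

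The transcripts behind these levels were mostly, but not always, labelled protein-coding. The 78 genes had 343 annotated transcripts, 170 of them protein-coding. The median share of a gene's TPM from protein-coding transcripts was 96.4% in the RSEM-layout and 96.0% in the kallisto-layout transcript table. In 53 genes (67.9%) the share was at least 90%, compared with 59.4% of 10999 protein-coding genes at 1 TPM or more in both libraries, and in 17 genes (21.8%) it was under 50%, compared with 7.02%. In the kallisto-layout table these were 41 genes (52.6%, against 54.6% of 10974 genes) and 20 genes (25.6% against 9.35%). Counting protein-coding transcripts alone, 76 of 78 genes reached 1 TPM in both libraries, and Mrps26 and Mrps16 did not.

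Mrps26 had the lowest protein-coding share, 2.74%. Its transcript Mrps26-201, labelled retained intron and 1057 nt long, had 28.4 and 25.8 TPM, while the protein-coding Mrps26-202, of 4278 nt, had 0.70 and 0.82 TPM. Mrps16 likewise had 30.6 and 27.6 TPM on the processed transcript Mrps16-202 of 801 nt and 1.40 and 0.68 TPM on the protein-coding Mrps16-201 of 2572 nt. Mrpl57 had 24.4 and 25.7 TPM on the retained-intron model Mrpl57-202 and 2.08 and 1.80 on the coding one. The kallisto-layout table gave the same order in these 3 genes.

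Mrpl51 had 7.50% of its TPM on its single protein-coding transcript, with 79.0 and 72.6 TPM on Mrpl51-202, a processed transcript. For Mrpl3 the share was 10.5%, and Mrpl3-204, labelled for nonsense-mediated decay, the pathway that removes messages with an early stop, had 42.7 and 40.8 TPM. Mrpl32 had 7.0% protein-coding TPM, with 13.7 and 12.6 TPM on the nonsense-mediated decay model Mrpl32-201. Mrps24 had 15.7%, with 43.7 and 47.3 TPM on the retained-intron model Mrps24-201.

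In 16 genes (20.5%) the leading transcript was not protein-coding, compared with 6.35% of the 10999 protein-coding genes, and in 18 (23.1%) in the kallisto-layout table, compared with 8.4%. Of the 16, 6 were labelled for nonsense-mediated decay, 6 as processed transcript and 4 as retained intron. In 15 of the 16 the highest protein-coding transcript was the longer one, with a median of 3006 nt against 703.5 nt for the leading transcript. Mrps35 was the exception. No other protein-coding genes were set beside this comparison of lengths.

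The tables placed Mrps14, an S14 homolog, differently. In the RSEM-layout table Mrps14-201, a nonsense-mediated decay model of 674 nt, had 44.7 and 38.3 TPM and the protein-coding Mrps14-202 of 787 nt 0 and 0.84 TPM. In the kallisto-layout table Mrps14-201 had 2.69 and 1.70 TPM and Mrps14-202 53.2 and 49.6 TPM. The protein-coding share of the gene was 5.16% in one and 96.1% in the other, while its summed level differed by 1.26 times. Over all 78 genes the leading transcript was the same in both tables in 56. No share over all protein-coding genes was set beside this count. Mrpl42 changed its leading transcript between 2 protein-coding models, Mrpl42-203 with a mean of 172 TPM in the first table and Mrpl42-201 with 122 TPM in the second.

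**Figure D5:**
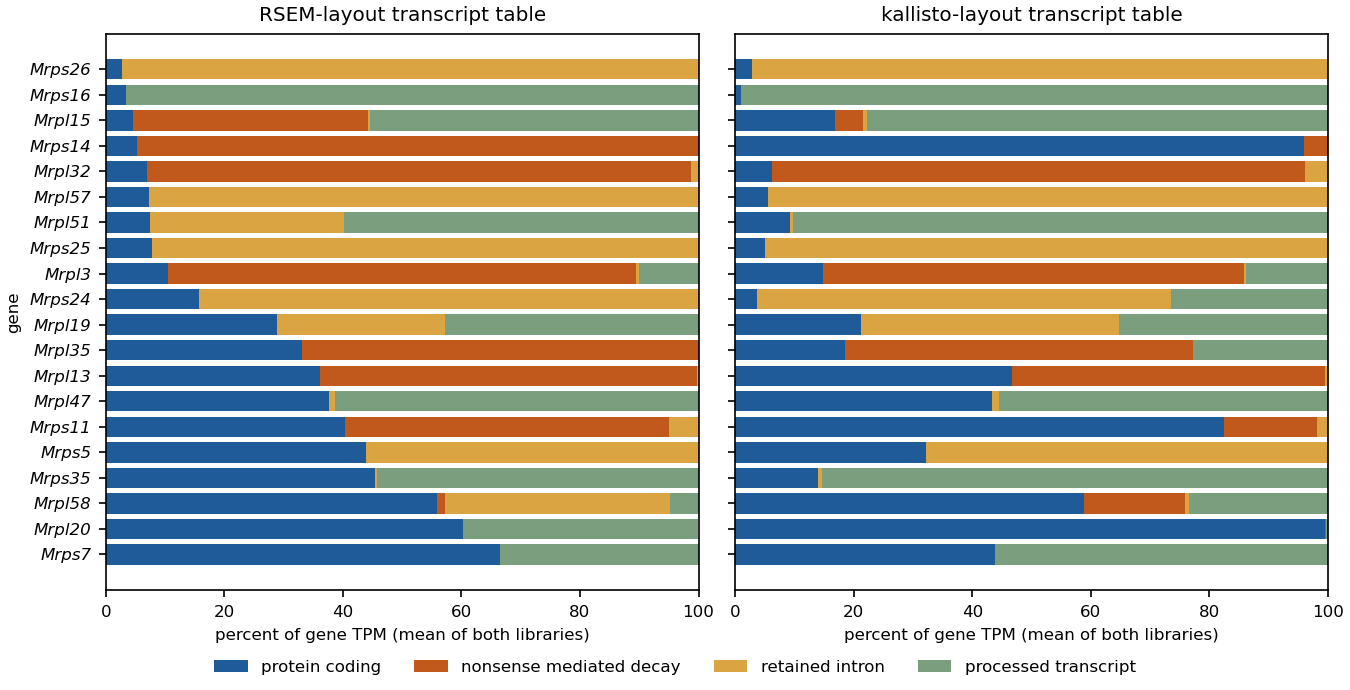
Percent of gene TPM, as the mean of both libraries, by transcript label for the 20 genes with the lowest protein-coding share, in each transcript table. Mrps26, Mrps16 and Mrpl57 are alike in both tables, while Mrps14 changes from 5.16% to 96.1% protein-coding.

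The neighbours across the start site had other levels. The 33 genes formed 32 pairs, of which 1 joined 2 mitochondrial ribosomal protein genes. In the other 31 pairs 23 neighbours reached 1 TPM in both libraries, as did 50% of all 22028 protein-coding genes. The mitochondrial ribosomal protein gene was the higher in both libraries in 23 of the 31. Neither count was made for other pairs of opposite starts. The median of all mitochondrial ribosomal protein genes, 30.6 and 31.9 TPM, was above the 8.80 and 9.03 TPM of detected protein-coding genes. The second count therefore does not separate the pairing from the level of these genes. Mrpl30 had 173 and 168 TPM and Mitd1, 66 bp away and active in cell division, 1.88 and 1.67. Mrpl57 had 26.4 and 27.5 TPM and Ska3, of the kinetochore, 0.03 and 0. Mrpl49 stood on the other side, with 15.4 and 18.4 TPM against 232 and 239 for Fau, which encodes a cytosolic ribosomal protein fused to a ubiquitin-like protein. Other neighbours serve mitochondria as well. Mrpl36 had 24.5 and 24.0 TPM and Ndufs6, of respiratory complex I, 501 and 486, and Mrpl47 lay opposite Ndufb5, also of complex I, at 357 and 355 TPM. Mrps12 had 21.7 and 23.5 TPM and Sars2, the mitochondrial seryl-tRNA synthetase, 5.53 and 6.02.

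The pair of 2 such genes joined both subunits. Mrps11 and Mrpl46, on chromosome 7, had 16.2 and 15.6, and 23.6 and 20.5 TPM. In 15 of the 33 genes the gene body overlapped that of the neighbour, a count with no share over other pairs of opposite starts beside it. The sources used here do not say whether counting used strand, so reads of such pairs may not be separated. The genes as a whole were spread over 17 chromosomes, with 11 on chromosome 11.

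Other genes of mitochondrial translation, taken from fixed lists, all reached 1 TPM in both libraries, but with lower medians. The list of 15 translation factors also held genes that are not factors in the strict sense. These were Lrpprc (50.7 and 52.2 TPM), Slirp (64.7 and 64.4) and Oxa1l (33.6 and 32.1). The list with these genes had medians of 22.5 and 22.3 TPM. Its highest genes were Tufm, the elongation factor that brings tRNAs, with 105 and 111 TPM, and Gfm1, the translocation factor, with 82.5 and 89.2. Mtrf1, of the release factor family, had 3.24 and 3.36 TPM, and Mtfmt, which formylates the initiator tRNA, 2.19 and 2.69. The 25 assembly factors had medians of 8.94 and 10.7 TPM, from the helicase Dhx30 (24.0 and 21.2) and Mterf3 (21.2 and 23.1) down to Ddx28 (3.89 and 4.35) and Ybey (1.24 and 1.24). In the 17 mitochondrial tRNA synthetases the medians were 8.98 and 9.88 TPM, with Fars2 (34.9 and 31.1) and Iars2 (29.2 and 33.2) highest and Mars2 (2.23 and 1.98) and Pars2 (2.10 and 1.85) lowest in the gene table. Lars2, the leucyl-tRNA synthetase, had 24.8 and 31.1 TPM there but 85.6 and 103 TPM in the kallisto-layout table, the highest of the 17. The assembly factors and synthetases thus stood near the median of detected protein-coding genes and the ribosomal proteins above it.

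The ribosomal RNAs of the mitochondrial ribosome were listed at 70157 and 63959 TPM for mt-Rnr1, of the small subunit, and 124548 and 112167 TPM for mt-Rnr2, of the large. As the RNA had been reduced in ribosomal RNA, these levels cannot be set against those of the proteins.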

How the data were processed

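Heart RNA of 1 group, replicates 1 and 2, was analysed from 3 deposited tables a library. Per the deposited readme, all refer to build mm10 and GENCODE M21. The sources used here give no program, aligner or version, so tables are named by their column layout, RSEM or kallisto. The authors deposited expected counts, estimated reads that are split among genes they fit, TPM (also as a posterior mean), FPKM, and isoform percent, a transcript's percent of its gene's TPM. The TPM deposited by the authors in the kallisto-layout table was summed per gene. Annotated length exceeded effective length by 99 nt in the RSEM-layout tables and by 325 and 322 nt in the kallisto-layout table. Rows of no Ensembl gene, spike-ins among them, held 0.492% and 0.515% of expected counts.

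Levels are TPM per library or mean ± SD (n = 2). Log2 ratios used a pseudocount of 0.1 and a minimum mean TPM of 1. With 1 group there was no contrast and no p-value. At these depths a count of 0 allows 3 counts, 0.0836 and 0.0812 CPM. Intervals (95%, exact) cover counting error only. Words of 31 bases and the Mrpl23 alignment came from the annotation's transcripts, starts from its genes and promoter windows from RefSeq (GRCm38.p6).

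Named were, in each subunit, the 6 highest and 6 lowest genes, every gene 2-fold apart between libraries, the 8 farthest apart between tables in each direction (fewer if under 1.5 times), genes of 5 role groups, Mrps30, Mrps36 and 5 subunit proteins with other names, and in other lists the 2 highest and 2 lowest. Others, such as those of transcripts, copies and neighbours, were picked after their values were seen. The members and lists were chosen with earlier results of these data known. Alternatives were the other table, posterior means, protein-coding transcripts alone, FPKM, the mean, structural subunits, other pseudocounts and filters, TMM scaling (edgeR 4.0.16, R 4.3.3, rounded expected counts), rescaling over nuclear protein-coding genes, and leaving out a replicate. Python 3.11.15, pandas 2.3.3, NumPy, SciPy and Biopython were used.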

Additional observations from a re-analysis of the deposited data

How the results depend on the processing

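The count of detected genes stayed at 76 to 78 under all alternatives tried, 78 without either replicate. The ratio of large to small subunit medians, 1.08 as reported, was 1.26 from protein-coding transcripts only, 1.00 with subunits by position in the ribosome and 1.15 with means in place of medians; without 1 replicate it was 1.05 to 1.11. The summed share of TPM, 0.337%, was 0.426% in the kallisto-layout table, 0.263% from protein-coding transcripts only and 0.332% to 0.341% without 1 replicate. The count of genes 2-fold apart between libraries, 1, was 0 in the kallisto-layout table (4.33% of protein-coding genes), 0 with posterior means and 0 with Mrpl23 and Mrpl23-ps1 added together, an alternative chosen after seeing the data; the other settings kept 1. Between the tables, 16 genes were more than 1.5 times apart and 2 more than 2 times, and 14 to 16 without 1 replicate. The median protein-coding share, 96.4%, was 96.0% in the kallisto-layout table and 96.3% to 96.6% without 1 replicate. The median of the translation factor list, 22.4 TPM, was 29.3 in the kallisto-layout table, also added later. Where values moved, the cause was not tested. No paired analysis was possible because there was 1 group. With 2 libraries the spread is known poorly.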
